A study of Mus musculus with 24 samples.

Results

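A set of 10 genes of hepatic de novo lipogenesis were followed in livers of mice on a methionine-choline deficient (MCD) diet and on a control diet. They were taken by gene symbol, as the transcription factors SREBP-1 (Srebf1) and ChREBP (Mlxipl) and the genes of fatty acid synthesis that they drive (Acly, Acaca, Acacb, Fasn, Me1, Thrsp, Pnpla3 and Pklr). All 10 had a row of their own among the 56205 gene rows, and all 10 passed the filter on low counts. The series holds 24 liver libraries of poly(A) RNA from C57BL/6J mice, 12 from animals fed the MCD diet and 12 from animals fed the control diet, each for 20 weeks. The design gives 6 males and 6 females per diet, so that each library stands for 1 animal, but no label gives the sex, age, litter or sequencing batch of a single library. In the methods the MCD feed is a high-fat one with a control diet made for it, while the labels call the control a chow. The lack of methionine and choline and other differences between the feeds cannot be told apart.

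De novo lipogenesis turns surplus carbohydrate into fatty acid. Pyruvate kinase closes glycolysis, mitochondria export citrate, ATP-citrate lyase splits it into acetyl-CoA, acetyl-CoA carboxylase makes malonyl-CoA, and fatty acid synthase builds palmitate with NADPH that malic enzyme helps to supply. In liver the transcription of these enzymes is driven mainly by SREBP-1c, which responds to insulin and liver X receptors, and by ChREBP, which responds to metabolites of glucose.

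All 10 genes were lower in MCD livers, by 1.26 (Mlxipl) to 4.63 (Pnpla3) on the log2 scale, with a median log2 fold change of -2.66. A gene was called in edgeR's quasi-likelihood test over 14109 genes where its log2 fold change exceeded 0.5 in size and its false discovery rate (FDR) was at most 0.01. By that rule 19.1% of all genes tested were lower and 19.2% were higher, and the median log2 fold change of all genes was -0.10. Every MCD library lay below every control library for 9 of the 10 genes, against 4.88% of all genes tested. Levels are given as counts scaled to library size (CPM), with library sizes adjusted by TMM, a method that sets the typical gene equal between libraries. The 10 genes together took 0.209% to 0.795% of all counts in control libraries (median 0.402%) and 0.0648% to 0.128% in MCD libraries (median 0.0960%), a share that does not depend on TMM (two-sided permutation test with 100000 resamples, p = 2e-05, the smallest these resamples can give).

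**Figure D1:**
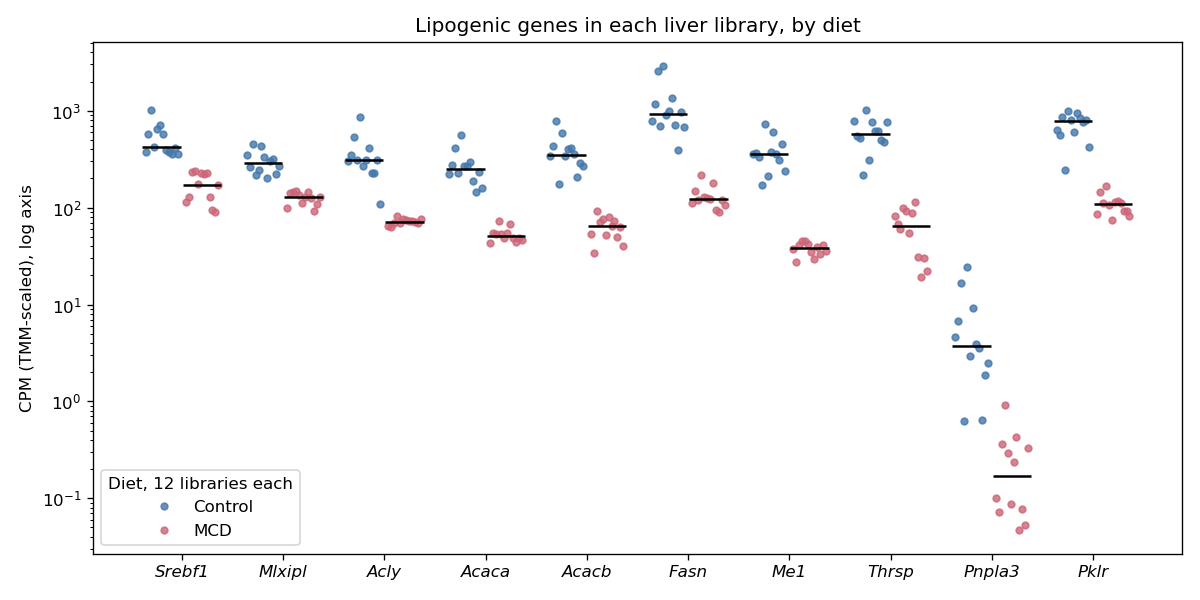
Level of each of the 10 genes in each of 24 liver libraries, as CPM on a log axis, with control in blue, MCD in red and a bar at each median. The diets do not overlap for 9 genes, and for Pnpla3 the highest MCD library lies above the lowest control libraries.

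Some features of the libraries bear on these values. Total counts ran from 16793207 to 24915175 in control and from 16388650 to 24577848 in MCD libraries. TMM factors were 0.642 to 0.973 for control libraries and 1.07 to 1.26 for MCD libraries, without overlap. Scaling by total counts alone moved the median log2 fold change of all genes up by 0.37, and 84.3% of calls were then higher in MCD livers, against 50.2% with TMM and 65.6% with upper-quartile factors. One MCD library, replicate 4, stood apart by transcripts of fat cells. It held 239 counts of Adipoq and 266 of Plin1, where each of the other 11 MCD libraries held at most 1 of either and control libraries at most 3. Of 6 fat cell markers 5 were too low in count to be tested, and Lep was at 0 in every library but this one, which held 5 counts. This library had the highest MCD level of 8 of the 10 genes, all but Acacb and Thrsp, and fat cells also express lipogenic enzymes. Its part in those levels was not tested. Without it the log2 fold changes ran from -1.25 (Mlxipl) to -4.97 (Pnpla3), with all 10 past the threshold.

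Promoter sequence is shown for the genes whose RefSeq windows (GRCm38.p6, 250 bases before an annotated start) held the less common of the motifs searched, and for Fasn and Pnpla3, the synthase and the gene with the largest difference. Runs read 5′ to 3′ on the gene's strand, and the run of Pklr ends where an annotated exon begins. Capitals mark matches to the carbohydrate response element or the CCAAT box in Pklr, to the E-box CACGTG or the CCAAT box in the second Mlxipl window, to the sterol regulatory element TCACNCCAC in the first Mlxipl window, and to the CCAAT box (ATTGG on the other strand) in Fasn and Pnpla3.
Pklr, chr3:89136373-89136571, plus strand: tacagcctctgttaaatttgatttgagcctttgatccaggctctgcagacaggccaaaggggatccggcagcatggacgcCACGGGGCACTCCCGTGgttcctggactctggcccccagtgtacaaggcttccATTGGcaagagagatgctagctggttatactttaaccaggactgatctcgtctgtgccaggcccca
Mlxipl, window 1, chr5:135106641-135106890, plus strand: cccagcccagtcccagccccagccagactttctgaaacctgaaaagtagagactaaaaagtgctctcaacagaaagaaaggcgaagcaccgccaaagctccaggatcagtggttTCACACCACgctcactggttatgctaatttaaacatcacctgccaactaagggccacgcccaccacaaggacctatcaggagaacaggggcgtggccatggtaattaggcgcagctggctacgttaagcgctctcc
Mlxipl, window 2, chr5:135089640-135089889, plus strand: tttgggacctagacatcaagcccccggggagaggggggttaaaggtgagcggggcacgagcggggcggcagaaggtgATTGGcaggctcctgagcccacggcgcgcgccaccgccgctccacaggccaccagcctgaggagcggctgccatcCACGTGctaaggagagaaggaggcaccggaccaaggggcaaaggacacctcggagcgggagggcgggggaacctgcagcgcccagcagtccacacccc
Fasn, chr11:120824548-120824797, minus strand: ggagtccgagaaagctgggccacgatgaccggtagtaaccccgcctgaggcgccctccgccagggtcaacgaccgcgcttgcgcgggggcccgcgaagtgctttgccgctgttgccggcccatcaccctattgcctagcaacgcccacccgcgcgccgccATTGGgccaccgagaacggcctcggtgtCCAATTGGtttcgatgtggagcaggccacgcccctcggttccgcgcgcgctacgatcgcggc
Pnpla3, chr15:84167566-84167815, plus strand: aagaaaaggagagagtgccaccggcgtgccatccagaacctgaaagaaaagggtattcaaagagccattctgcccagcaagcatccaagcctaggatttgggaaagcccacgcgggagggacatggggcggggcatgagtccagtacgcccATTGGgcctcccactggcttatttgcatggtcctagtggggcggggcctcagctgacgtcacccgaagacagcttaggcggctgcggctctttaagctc

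The carbohydrate response element, the site that ChREBP binds in the pyruvate kinase promoter, was searched as a pair of partial E-boxes a fixed distance apart. On both strands it matched 0.097% of the 32851 windows of all genes and 1 of the 15 windows of the 10 genes, that of Pklr, at bases -170 to -154 from the start. The sterol regulatory element TCACNCCAC matched 1.053% of all windows and 1 window of the 10 genes, in Mlxipl. CACGTG was in 6.021% of all windows and in 1 window of the 10 genes, also in Mlxipl. The CCAAT box, which NF-Y binds beside many SREBP sites, was in 33.85% of all windows and in 9 of the 15 windows, those of 8 of the 10 genes. The Sp1 box GGGCGG was in 32.742% of all windows and in 6 of the 15. Windows of one gene share sequence context, and a match describes letters, not binding.

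Srebf1 encodes SREBP-1 and is itself a target of SREBP-1c (ENSMUSG00000020538, chr11:60199089-60222581 of GRCm38, minus strand). In control livers it ranged from 356 to 1018 CPM with a median of 419, and in MCD livers from 90.6 to 241 CPM with a median of 172. The groups did not overlap, and the highest MCD library reached less than the lowest control library. The mean fell from 518 ± 200 to 171 ± 58.2 CPM (SD, n = 12 each), a change of -1.60 on the log2 scale (SE 0.20, 95% interval -2.01 to -1.18, edgeR FDR 1.45e-07). In the annotation its exons overlap those of Rai1 on the opposite strand by 109 bases, 1.94% of its exonic length. SREBP-1a and SREBP-1c come from one gene row and could not be separated.

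Mlxipl encodes ChREBP (ENSMUSG00000005373, chr5:135089890-135138382, plus strand) and had the smallest difference of the 10 genes. Control libraries ranged from 203 to 452 CPM with a median of 287, and MCD libraries from 91.4 to 149 CPM with a median of 128. None of the 12 MCD libraries reached the lowest control library. The mean fell from 301 ± 81.7 to 125 ± 18.8 CPM (SD, n = 12 each), a change of -1.26 on the log2 scale (SE 0.13, edgeR FDR 3.18e-09).

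Pklr, the liver pyruvate kinase and a classic ChREBP target (ENSMUSG00000041237, chr3:89136142-89146784, plus strand), ranged from 246 to 984 CPM in control livers with a median of 782. MCD livers ranged from 75.2 to 166 CPM with a median of 109, with no overlap. Pklr fell by 2.71 on the log2 scale (SE 0.18, edgeR FDR 3.83e-12), which left 15.3% of the control level. Exons of Hcn3 on the opposite strand cover 711 bases of Pklr, 22.0% of its exonic length. Whether the counting used strand is not given in the sources used here, so reads in that stretch cannot be assigned with certainty. Hcn3 held 14124 counts in all libraries together, against 179536 for Pklr.

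Acly, ATP-citrate lyase (ENSMUSG00000020917, chr11:100476353-100528000, minus strand), ranged from 108 to 852 CPM in control livers with a median of 311 and from 63.7 to 82.8 CPM in MCD livers with a median of 71.2. The lowest control library lay just above the highest MCD library, and the MCD libraries sat within a narrow band. Acly fell by 2.29 on the log2 scale (SE 0.21, edgeR FDR 5.24e-10).

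The carboxylases Acaca (cytosolic ACC1, which makes malonyl-CoA for synthesis) and Acacb (mitochondrial ACC2, whose malonyl-CoA restrains fatty acid oxidation) fell by similar amounts. Acaca (ENSMUSG00000020532, chr11:84129672-84401651, plus strand) ranged from 145 to 559 CPM in control livers (median 249) and from 43.5 to 73.2 CPM in MCD livers (median 51.1), with no overlap. In log2 terms Acaca fell by 2.35 (SE 0.17, edgeR FDR 1.68e-11). Acacb (ENSMUSG00000042010, chr5:114146535-114250761, plus strand) ranged from 174 to 776 CPM (median 348) in control and from 33.9 to 92.1 CPM (median 64.2) in MCD livers, again with no overlap. In log2 terms Acacb fell by 2.61 (SE 0.21, edgeR FDR 6.05e-11).

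Fasn, fatty acid synthase (ENSMUSG00000025153, chr11:120805846-120824547, minus strand), ranged from 393 to 2920 CPM in control livers with a median of 929. In MCD livers it ranged from 89.6 to 215 CPM with a median of 122, and all 12 libraries lay below every control library. The mean fell from 1180 ± 781 to 130.0 ± 35.6 CPM (SD, n = 12 each), a change of -3.18 on the log2 scale (SE 0.27, 95% interval -3.74 to -2.63, edgeR FDR 1.98e-10).

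Me1, cytosolic malic enzyme and a source of NADPH (ENSMUSG00000032418, chr9:86581371-86695953, minus strand), ranged from 173 to 724 CPM in control livers (median 358) and from 27.2 to 45.4 CPM in MCD livers (median 38.2). The diets were far apart, and the fold change had the lowest FDR of the 10 genes (log2 -3.32, SE 0.19, edgeR FDR 2.94e-13). Thrsp, or Spot 14, is a thyroid hormone-responsive protein of lipogenic tissue (ENSMUSG00000035686, chr7:97412938-97417730, minus strand). It ranged from 219 to 1007 CPM in control livers (median 581) and from 19.0 to 114 CPM in MCD livers (median 64.3). Thrsp fell by 3.22 on the log2 scale (SE 0.29, edgeR FDR 6.58e-10). The MCD libraries formed separate groups for this gene, with replicates 9 to 12 at 19.0 to 30.7 CPM and the other 8 at 55.0 to 114 CPM.

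Pnpla3, a lipid droplet protein and SREBP-1c target (ENSMUSG00000041653, chr15:84167837-84187236, plus strand), had the lowest level per kb of transcript of the 10 genes in both diets. Control libraries held 10 to 436 counts (median 64), or 0.622 to 24.3 CPM with a median of 3.75. MCD libraries held 1 to 22 counts (median 4), or 0.0468 to 0.928 CPM with a median of 0.169. In all, 11 of the 12 MCD libraries lay below every control library, and the exception was replicate 4, the library with fat cell transcripts, at 22 counts. Pnpla3 fell by 4.63 on the log2 scale (SE 0.58, 95% interval -5.83 to -3.43, edgeR FDR 1.53e-07). Since 6 MCD libraries held 3 counts or fewer, the size of this difference rests on few reads.

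Levels of different genes were compared after division by the length of the longest annotated transcript, in CPM per kb. In control livers the order ran Thrsp (423 ± 154, SD, n = 12), Pklr (243 ± 76.0), Srebf1 (121 ± 46.6), Fasn (117 ± 77.7), Me1 (114 ± 47.7), Mlxipl (83.1 ± 22.6), Acly (79.3 ± 42.7), Acacb (43.5 ± 18.9), Acaca (28.5) and Pnpla3 (4.91 ± 5.45). Srebf1, Fasn and Me1 did not differ from each other beyond their spread, nor did Mlxipl and Acly, since Srebf1 was above Fasn in 9 of 12 libraries, Fasn above Me1 in 5 and Mlxipl above Acly in 7. In MCD livers Thrsp (45.3 ± 23.2), Srebf1 (39.8 ± 13.5), Pklr (37.3 ± 8.97) and Mlxipl (34.6 ± 5.20) lay within their spread of one another. Mlxipl was above Acly, next in the order at 16.2 ± 1.21 CPM per kb, in all 12 MCD libraries. Both transcription factors thus had higher means per kb than Acly, Fasn, Me1, Acacb, Acaca and Pnpla3 in MCD livers. With merged exons in place of the longest transcript, Pklr came first in MCD livers at 33.4 ± 8.05 and Thrsp the third at 29.0 ± 14.8 CPM per kb. In control livers that length gave 270.4 ± 98.2 for Thrsp and 218 ± 68.2 for Pklr, with Thrsp above Pklr in 7 of 12 libraries against 11 by the longest transcript, so these neighbours did not differ beyond their spread. Srebf1 moved to the fifth place (92.0 ± 35.6 CPM per kb), below Fasn and Me1, and Acly stood above Mlxipl. By that length Fasn was above Me1 in 5 of 12 control libraries, Me1 above Srebf1 in 6 and Acly above Mlxipl in 6. These neighbours too did not differ beyond their spread.

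**Figure D2:**
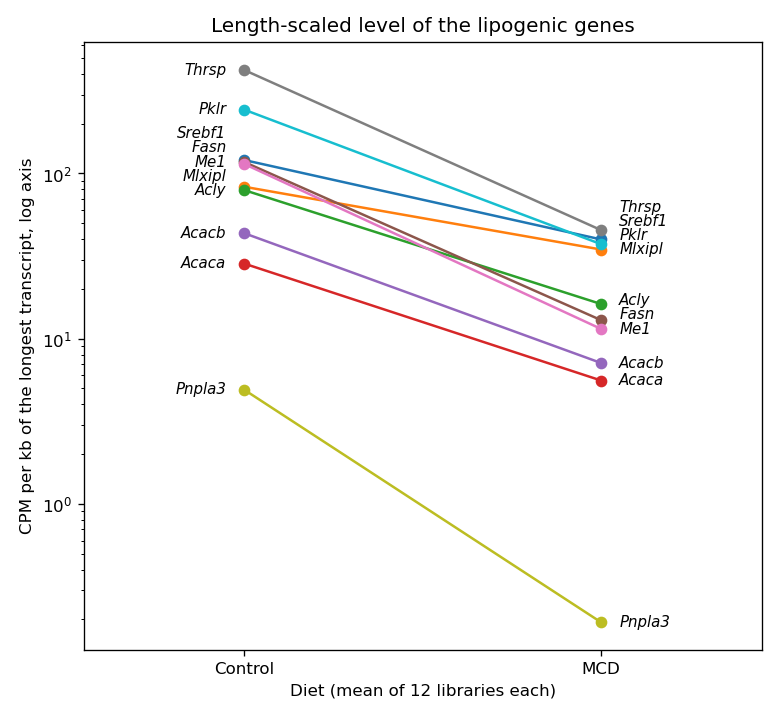
Mean level of the 10 genes in each diet, in CPM per kb of the longest transcript on a log axis, with a line joining the control mean and the MCD mean of 12 libraries each. The lines of Srebf1 and Mlxipl are the shallowest and that of Pnpla3 is the steepest.

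Ratios between genes in the same library do not depend on library scaling, and 15 were compared, 11 of which differed between the diets (two-sided permutation tests with 100000 resamples, adjusted p of 0.05 or less over the 15). The pairs were chosen with earlier results of these data known, so these p-values describe the separation of the diets and are not independent support. Both factors were higher relative to the target enzyme they were paired with. The ratio of Srebf1 to Fasn rose by 1.39 on the log2 scale, from -1.04 ± 0.56 to 0.36 ± 0.43 (SD, n = 12 each, adjusted permutation p = 3e-05). That of Mlxipl to Pklr rose by 1.42, from -1.19 ± 0.61 to 0.23 ± 0.23 (adjusted permutation p = 3e-05), with no overlap between the diets. Srebf1 relative to Mlxipl changed by -0.37 (adjusted permutation p = 0.0532), short of the limit, though it passed when some single libraries were left out.

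Within the synthetic route, Fasn fell more than Acaca, by 0.72 on the log2 scale (adjusted permutation p = 3e-05), and more than Acly, by 0.86 (adjusted permutation p = 0.00015). The ratio of Acacb to Acaca changed by -0.28 (adjusted permutation p = 0.108), that of Fasn to Elovl6, which lengthens palmitate, by -0.21 (adjusted permutation p = 0.313), and that of Acly to Acss2, which makes acetyl-CoA from acetate, by 0.26 (adjusted permutation p = 0.324). These differences could not be separated from the spread, though those of Acacb to Acaca and of Acly to Acss2 passed the limit without Control replicate 4. Scd1, the stearoyl-CoA desaturase, moved further than Fasn, so that the ratio of Fasn to Scd1 rose by 2.47 with no overlap.

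In the 3 largest changes of ratio a gene of the list was set against a relative that was not lower past the threshold. Pklr relative to Pkm, the pyruvate kinase of most other cell types, went from 4.44 ± 0.85 to -0.49 ± 0.48 on the log2 scale (SD, n = 12 each), a change of -4.94 (adjusted permutation p = 3e-05). Every control library had a higher ratio than every MCD library. Me1 relative to G6pdx, which also makes NADPH, changed by -4.15, and Pnpla3 relative to Pnpla2, the triglyceride lipase ATGL, by -4.10. The Pnpla3 value depends on the prior count in the log2 CPM, being -4.59 with 0.5 in place of 2, so its place beside Me1 is uncertain. Exons of Ikbkg on the opposite strand cover 13.6% of G6pdx and held more counts than it did (21263 against 7926), so that the G6pdx value is uncertain. Srebf1 relative to Srebf2, which drives cholesterol synthesis, changed by -1.67, Thrsp relative to its paralog Mid1ip1, itself lower past the threshold, by -2.48, and Acacb relative to Mlycd, the decarboxylase that removes malonyl-CoA, by -2.23, each with an adjusted permutation p of 3e-05 and no overlap between the diets.

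**Figure D3:**
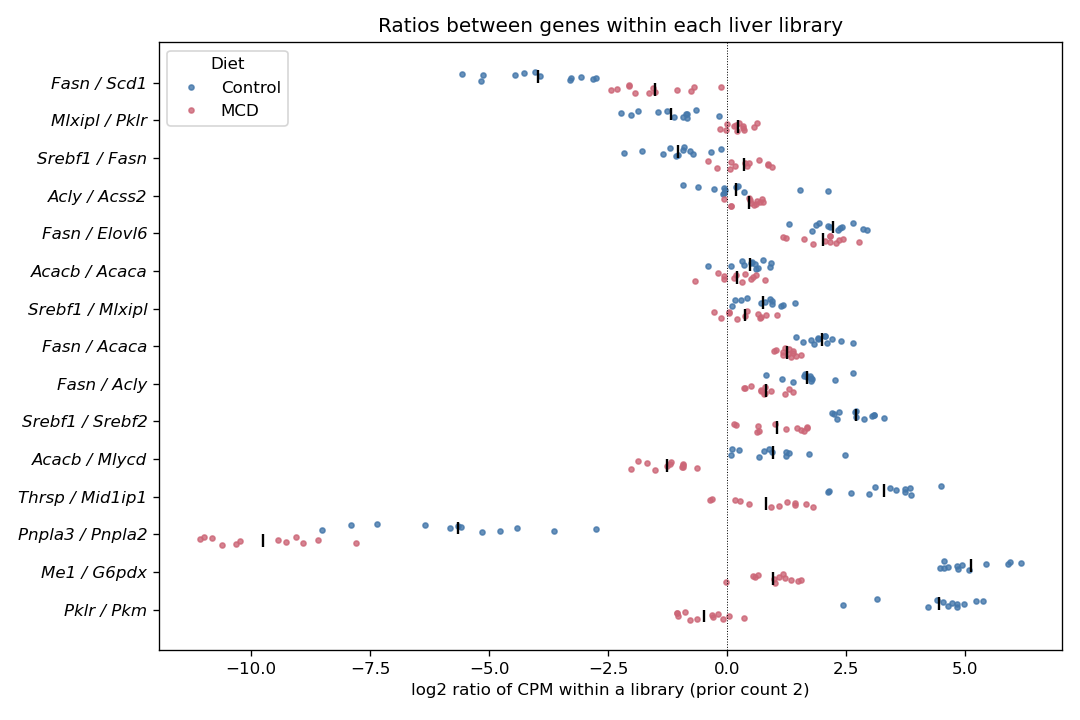
Log2 ratio of CPM between the genes of 15 pairs in each library, control in blue and MCD in red, with a bar at each mean of 12 libraries. The pairs are ordered by the difference between the diets, from -4.94 for Pklr over Pkm to 2.47 for Fasn over Scd1.

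The pathway around the 10 genes was described with 8 lists. Of their 92 genes tested, 46 were lower and 9 were higher in MCD livers at the same threshold, beside 19.1% lower and 19.2% higher of all genes. In 24 of the 92, every MCD library lay below every control library, beside 4.88% of all genes tested. Scaling by total counts alone left 26 lower and 15 higher, beside 6.01% lower and 32.2% higher of all genes on that scale.

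Among 12 genes that process SREBP or act with it, 5 were lower and 0 higher in edgeR's quasi-likelihood test (median log2 fold change -0.30), and 3 lower and 1 higher with total counts alone. Insig1, which holds SREBP in the endoplasmic reticulum and is an SREBP target, fell by 1.23 (SE 0.18, edgeR FDR 1.16e-06). Ppargc1b, a coactivator of SREBP-1c, fell by 1.12 from 6.83 to 3.14 CPM, Scap, which escorts SREBP to the Golgi, by 0.99, and Rxra, the partner of the liver X receptors, by 0.65, all on the log2 scale. Usf1, at a log2 fold change of 0.41 (edgeR FDR 0.00163), was short of the fold limit. Srebf2 itself was at 75.8 CPM in control and 78.7 CPM in MCD livers (log2 0.05, SE 0.08, edgeR FDR 0.587). Nr1h3, the liver X receptor alpha, had a log2 fold change of -0.27 (edgeR FDR 0.0157).

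Among 12 partners and targets of ChREBP, 6 were lower and 2 higher (median -0.79). Rgs16 fell by 1.59, the fructose enzymes Khk by 1.47 and Tkfc by 1.13, and the glucose transporter Slc2a2 by 1.09 on the log2 scale. In the other direction Fgf21, a hepatic hormone that other pathways also induce, rose from 7.28 to 16.3 CPM (log2 1.16, SE 0.28, edgeR FDR 0.000789) and Txnip by 0.54. Mlx, the obligate partner of ChREBP, had a log2 fold change of -0.42 (edgeR FDR 0.00155), short of the fold limit.

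From glucose to citrate, 8 of 13 genes were lower and 1 higher (median -0.65). Scaling by total counts left 3 of the lower calls. Dlat, a subunit of pyruvate dehydrogenase, fell from 75.3 to 35.1 CPM (log2 -1.10, SE 0.11, edgeR FDR 1.89e-09). On the log2 scale Pcx, pyruvate carboxylase, fell by 0.78 and Slc25a1, the mitochondrial citrate carrier, by 0.85. Pkm was the gene that rose, from 31.9 to 152 CPM (log2 2.25, SE 0.16, edgeR FDR 6e-12).

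For acetyl-CoA and NADPH supply, 3 of 10 genes tested were lower and 2 higher, with a median of 0.12. The share higher was near the 19.2% of all genes, and with total counts alone the calls turned to 2 lower and 5 higher. Acss2 fell from 331 to 52.6 CPM (log2 -2.65, SE 0.27, edgeR FDR 4.78e-09), Acat2 by 1.42 and Idh1 by 0.82. Me2, the mitochondrial malic enzyme, rose from 3.08 to 5.81 CPM (log2 0.91), and G6pdx by 0.80. Me3 did not pass the filter, and Nnt, which had 2 rows under one name, was left out.

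Control of malonyl-CoA and of acetyl-CoA carboxylase took 12 genes, of which 4 were lower and 2 higher (median -0.26). With total counts alone 1 was lower and 2 higher. Prkaa2, a catalytic subunit of AMPK, fell by 1.32, Mid1ip1, which helps ACC to polymerise, by 0.87, Hlcs, which attaches biotin to ACC, by 0.74, and Cpt1a, the malonyl-CoA-sensitive gate of fatty acid oxidation, by 0.64 on the log2 scale. Prkab2 (log2 0.85) and Trib3 (log2 0.79) were higher.

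Of 12 genes that modify and esterify fatty acids, 8 were lower and 1 higher (median -1.09). Scd1 had the largest log2 fold change of the 8 lists, -5.47 (SE 0.35, edgeR FDR 1.64e-12). Elovl6 fell from 240 to 31.6 CPM (log2 -2.93), Elovl5 from 983 to 252 CPM (log2 -1.96), and the desaturase Fads1 from 1573 to 555 CPM. Scd2 rose from 8.76 to 19.3 CPM (log2 1.13, SE 0.19, edgeR FDR 7.91e-06).

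Cholesterol synthesis genes driven by SREBP-2 were lower in 10 of 12 cases and none of the 12 had a positive log2 fold change (median -0.79), with Fdps, farnesyl diphosphate synthase, at -2.07 and Lss, lanosterol synthase, at -1.32 on the log2 scale. Upper-quartile factors and limma-voom each left 6 of these calls and scaling by total counts 4, where 12.1%, 17.4% and 6.01% of all genes were lower. Mitochondrial fatty acid synthesis, a separate route in the mitochondrion, had 2 of 9 genes lower, Oxsm (log2 -0.69) and Acsf3 (log2 -0.58), and 1 higher, Lipt2 (log2 0.72), with a median of -0.28. The share lower was near the 19.1% of all genes. Scaling by total counts left 0 of the lower calls, and 6 of the 9 genes were lower by TMM at an FDR of 0.05 and any fold, as were 37% of all genes.

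**Figure D4:**
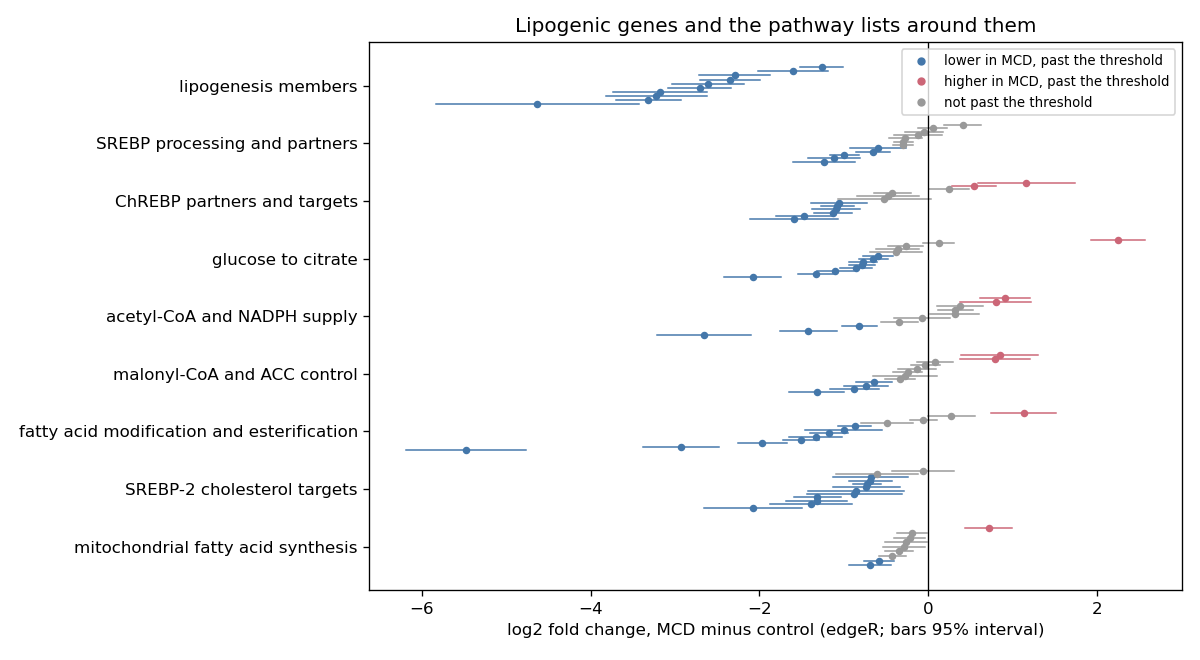
Log2 fold change (MCD minus control) with its 95% interval for the 10 lipogenic genes and the 92 genes of 8 lists, blue where lower and red where higher past the threshold and grey elsewhere. The 10 lipogenic genes all lie at -1.26 or below, while the lists spread from -5.47 to 2.25.

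Markers of cell types also differed between the diets, and in whole liver fewer cells of a type and less RNA per cell cannot be told apart. The counts of markers below stand beside 19.1% lower and 19.2% higher of all genes tested. Of 12 hepatocyte markers 5 were lower and 0 higher by edgeR, and their summed level was 99840 to 216630 CPM in control (median 129318) and 82868 to 116908 CPM in MCD livers (median 106263). With TMM the mean log2 CPM of these markers differed by -0.38 between the diets. Scaling by total counts alone moved the median log2 fold change of all genes up by 0.37, which is close to that size. The lower level of hepatocyte markers thus depended on the scaling. Every one of 6 mesenchymal, 6 cholangiocyte and 6 monocyte-derived macrophage markers was higher. The summed levels were 143 to 456 CPM in control and 644 to 1155 CPM in MCD livers for mesenchymal markers, 30.1 to 146 and 453 to 906 CPM for cholangiocyte markers, and 3.45 to 52.4 and 553 to 1214 CPM for macrophage markers. Over all MCD libraries the cholangiocyte marker Spp1 held 172137 counts, with Epcam next at 8261. The macrophage marker Gpnmb held 164414, with Trem2 next at 24916. In MCD livers these sums thus mostly followed Spp1 and Gpnmb. Lymphocyte markers were higher in 4 of 6 cases (2.89 to 8.96 CPM in control, 10.6 to 24.2 CPM in MCD livers), and endothelial markers were lower in 5 of 6 (190 to 283 and 105 to 175 CPM). Of 6 Kupffer cell markers 4 were lower and 1 higher (175 to 511 and 307 to 510 CPM).

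Relative to the mean of the 12 hepatocyte markers in the same library, all 10 genes were still lower in MCD livers. The log2 differences were -0.86 for Mlxipl, -1.22 for Srebf1, -1.75 for Acly, -1.89 for Acaca, -2.17 for Acacb, -2.28 for Pklr, -2.62 for Fasn, -2.85 for Me1, -2.96 for Thrsp and -3.41 for Pnpla3 (two-sided permutation tests with 100000 resamples, adjusted p of at most 6e-05 over the 10). For Pnpla3 the difference was -3.90 with a prior count of 0.5 in place of 2 in the log2 CPM. The marker mean itself differed by -0.38 between the diets. On this scale every MCD library was below every control library for 6 of the 10 genes, Acaca, Acacb, Fasn, Me1, Thrsp and Pklr, against 0.354% of all genes tested. For Acly only 1 of 12 MCD libraries lay below every control library.

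Libraries of one diet differed among themselves, and part of that spread followed a sex-linked expression score, the log2 CPM of Xist minus the mean of 4 Y-linked genes. It entered the fits as a plain number, without labelling any library male or female. In each diet 6 libraries scored above 10 and 6 below -5. Srebf1 was the gene of the list that followed the score at an FDR of 0.01 or less over both diets, with a log2 difference of 0.95 from the lowest to the highest score (SE 0.13, edgeR FDR 1.02e-05). Of all genes tested, 3.48% did so.

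Control libraries with a score above 0 held 423 to 1018 CPM of Srebf1 and those below 0 held 356 to 415 CPM. Among MCD libraries the ranges were 174 to 241 and 90.6 to 171 CPM. The ranges did not overlap within either diet, and those of the diets did not overlap at either end of the score. Pnpla3 had a log2 difference of 1.98 over the score (SE 0.50, edgeR FDR 0.0131) and Acaca of 0.57 (SE 0.15, edgeR FDR 0.0190), both short of the limit, while Me1 and Pklr each had 0.02 (edgeR FDR of 0.970 and 0.967).

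The diet difference did not depend on the score past that limit for any of the 10 genes, against 0.411% of all genes tested. The nearest was Thrsp, with a diet difference of -3.97 (SE 0.41) at the lowest and -2.65 (SE 0.38) at the highest score, an interaction of 1.32 (SE 0.55, edgeR p = 0.0234, FDR 0.278). By an unadjusted p under 0.05 it was the 1 gene of the 10, and no other tool was run on this term. Among MCD libraries with a score below 0, replicates 9 to 12 held 19.0 to 30.7 CPM of Thrsp. Replicates 1 and 2 held 82.3 and 68.3 CPM, within the 55.0 to 114 CPM of MCD libraries above 0.

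**Figure D5:**
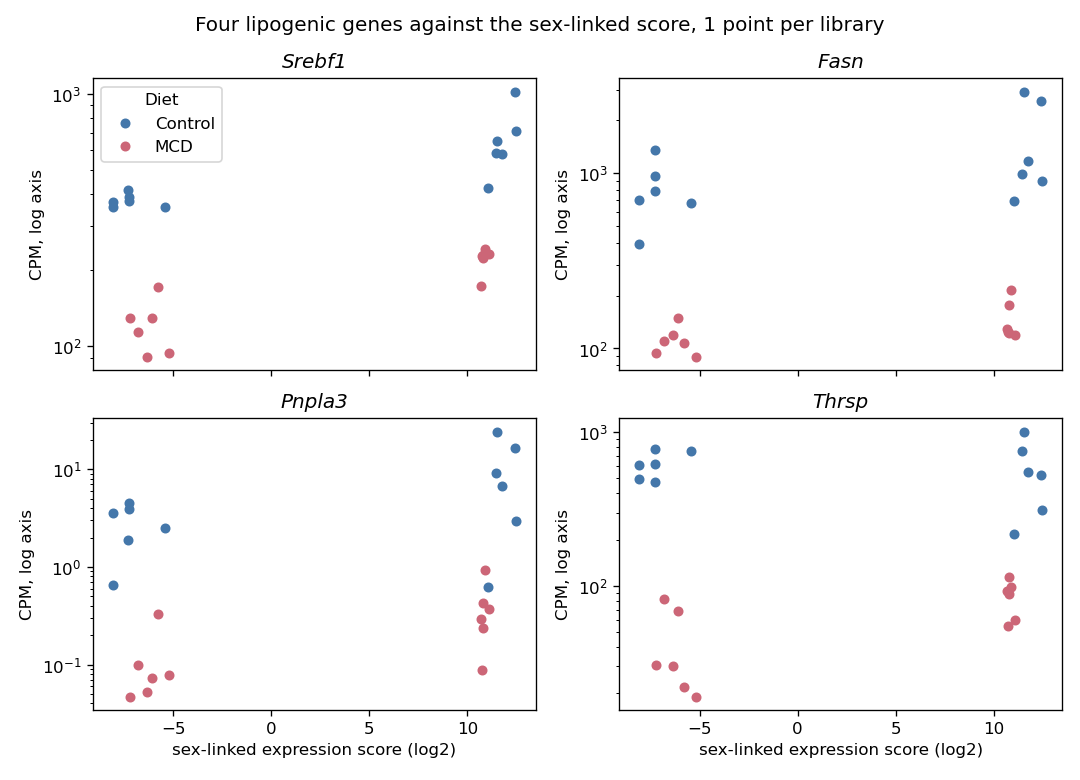
CPM of Srebf1, Fasn, Pnpla3 and Thrsp on log axes against the sex-linked expression score of each library, control in blue and MCD in red. Srebf1 is higher at the high end of the score in both diets, and Thrsp has 4 MCD libraries near 19.0 to 30.7 CPM at the low end. The other MCD libraries at the low end held 68.3 and 82.3 CPM of Thrsp.

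The spread of log2 CPM was compared next. Acly had an SD of 0.720 among control and 0.107 among MCD libraries (two-sided permutation test of the deviations with 100000 resamples, p = 0.00888, adjusted over the 10 genes 0.0888). None of the 10 genes passed an adjusted p of 0.05 by that test, and Acly was the 1 with an unadjusted p under 0.05. The other 7 genes also had the larger SD in control livers, while Srebf1 (0.488 and 0.532) and Thrsp (0.602 and 0.895) had the larger in MCD livers.

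Within a diet the 10 genes tended to vary together. Over the 45 pairs the Pearson r of log2 CPM had a median of 0.578 in control and 0.486 in MCD libraries, with 41 pairs positive in each, a description over 12 libraries that share depth and scaling. Relations of each gene to Srebf1 and Mlxipl were tested within each diet, 32 in all, and 5 had an adjusted p of 0.05 or less for Pearson's r (two-sided permutation tests with 100000 resamples). By Spearman's rho 5 passed, and 3 passed by both measures. In control livers Srebf1 was related to Acaca (r = 0.758, p = 0.00455, adjusted 0.0387; rho = 0.811, p = 0.00192, adjusted 0.0216), and r was 0.807 without the 2 libraries farthest from the median. By Pearson's r but not by rho it was also related to Acacb (r = 0.734, permutation p = 0.00554, adjusted 0.0387; rho = 0.622, p = 0.0355, adjusted 0.0946) and to Fasn (r = 0.738, permutation p = 0.00604, adjusted 0.0387; rho = 0.727, p = 0.00984, adjusted 0.0525), with r of 0.649 and 0.750 without the farthest 2. Without those libraries Acaca still passed (adjusted permutation p = 0.0374), while Acacb (adjusted permutation p = 0.139) and Fasn (adjusted permutation p = 0.0794) did not.

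In MCD livers the relations that passed by both were those of Srebf1 to Pnpla3 (r = 0.751, permutation p = 0.00586, adjusted 0.0387; rho = 0.790, p = 0.0032, adjusted 0.0216) and of Mlxipl to Acaca (r = 0.794, permutation p = 0.00247, adjusted 0.0387; rho = 0.860, p = 0.00076, adjusted 0.0216). Mlxipl passed by rho but not by r with Pklr (rho = 0.790, permutation p = 0.00337, adjusted 0.0216; r = 0.714, adjusted 0.0502) and with Fasn (rho = 0.790, permutation p = 0.00337, adjusted 0.0216; r = 0.697, adjusted 0.0533). Since Pnpla3 held 1 to 22 counts in these libraries, and 3 or fewer in 6 of them, its relation rests on few reads. Without the farthest 2 libraries r of Srebf1 and Pnpla3 and of Mlxipl and Acaca was 0.697 and 0.746, and neither passed the adjusted limit. Without MCD replicate 4, the library with fat cell transcripts, the adjusted permutation p was 0.0912 for Srebf1 and Pnpla3 and 0.0483 for Mlxipl and Acaca. After removal of the sex-linked score 0 of the 32 relations passed by Pearson's r, with a smallest adjusted permutation p of 0.0906 and 6 at an unadjusted p under 0.05. The r of the 5 relations that had passed by r then stood at 0.531 for Srebf1 and Acaca, 0.791 for Srebf1 and Acacb and 0.628 for Srebf1 and Fasn in control livers. In MCD livers it was 0.457 for Srebf1 and Pnpla3 and 0.701 for Mlxipl and Acaca, so 1 of the 5 had a higher r than before and 4 a lower one. The smallest unadjusted p after removal was that of Srebf1 and Pklr in control livers, which had not passed before. Its r went from 0.274 to 0.775 (permutation p = 0.00485, adjusted 0.0906). Among the 6 libraries of a diet at one end of the score, r ran from 0.260 (Srebf1 and Pnpla3 in MCD libraries, score above 0) to 0.852 (Srebf1 and Acacb in control libraries, score above 0), and the exact permutation p over these sets ran from 0.0458 to 0.442. No single r is given for Thrsp in MCD livers, where its values fell into separate groups, though its pairs enter the median r over all pairs.

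Beyond the list, the genes whose variation among animals of one diet was most like the mean of the 10 were ranked over 24 libraries, with each gene centred within its diet. Of 10103 genes at a mean of 5 CPM or more, the first was Chrna4 (r = 0.874), a nicotinic receptor subunit, followed by the glucuronosyltransferase Ugt1a5 (r = 0.854) and the pyruvate dehydrogenase kinase Pdk1 (r = 0.828). The mean CPM of Chrna4 was 27.8 ± 27.3 (SD) over the 12 control livers against 0.136 ± 0.0947 over the 12 MCD livers. It passed the 5 CPM minimum through the control livers, held 0 to 8 counts in each MCD library, and had an r of 0.898 among the 12 control libraries alone. Ugt1a5 shares exons with other members of its cluster, so that its counts are uncertain. Insig1 was sixth (r = 0.798), and Appl2, Gga2, Fgfrl1, Slc44a1, Rcan2 and Anks4b completed the first 10, the last at r = 0.765. The median r over all ranked genes was -0.03. With the sex-linked score removed within each diet, a ranking added after seeing the data, 3 of these 10 genes were among the first 10 (Chrna4, Insig1 and Ugt1a5), and the r of the 10 ran from 0.680 (Rcan2) to 0.904 (Chrna4). Of these 10 genes 7 were also lower in MCD livers past the threshold, and Appl2, Gga2 and Slc44a1, with log2 fold changes of -0.30, -0.36 and -0.44, were short of the fold limit.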

How the data were processed

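The authors deposited unnormalized read counts by Ensembl gene for whole-liver mRNA, 1 column for each of 24 libraries. Per the labels (the submitters' processing notes), bcl2fastq, STAR 2.7.3a and mm10 were used, with no role given. The study's methods name the exon quantification pipeline and PISCES for its human libraries. The counting tool, annotation and use of strand for the mouse libraries are not given in the sources used here. Symbols, coordinates and lengths came from GENCODE mouse release 21 (GRCm38), which named 51745 of 56205 rows. Rows without a name held 0.0808% of counts. All 24 columns matched a sample title.

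Genes were kept with filterByExpr by diet (14109), libraries were scaled by TMM, and edgeR 4.0.16 (glmQLFit, glmQLFTest; R 4.3.3) compared 12 MCD with 12 control libraries without covariates. The threshold is the one the study set for human liver. SEs are the absolute log2 fold change over the square root of F. Log2 CPM used a prior count of 2. Permutation tests were two-sided with 100000 resamples (numpy 2.4.6, Python 3.11.15). The fit and the permutation tests were checked on simulated data. Alternatives were other scalings and filters, DESeq2 1.42.0, limma-voom (limma 3.58.1), a replicate block, the sex-linked score as a covariate, other thresholds, prior counts, and leaving out each library. The interaction with the score, the merged exon length, the likeness ranking without the score and the relations without MCD replicate 4 or within score ends were added after seeing the data.

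Beside the 10 genes, the text names both genes of each ratio, up to 4 genes per direction of each list by absolute log2 fold change, list genes whose role is told, and the 10 genes most like the members. Some list genes that this rule takes are not reported here by name. The members, lists and ratios were chosen with earlier results of these data known. A floor of 3 counts covers counting error only.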

Additional observations from a re-analysis of the deposited data

How the results depend on the processing

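All 10 lipogenic genes stayed lower and past the threshold in each of 9 other scalings, filters and models and without any one of the 24 libraries, except that Pnpla3 was not testable when 10 counts were required in every library, which left 9. Scaling by total counts gave the smallest of these alternatives' differences for 9 of them, such as -0.90 for Mlxipl, -1.26 for Srebf1 and -2.86 for Fasn, and limma-voom did so for Pnpla3 (-4.30). Of the pathway genes, 46 lower and 9 higher became 26 and 15 with total counts alone and 25 and 3 with a log2 limit of 1. Without Control replicate 12, the library with the lowest TMM factor, 1 SREBP partner was higher instead of 0, and 1 mitochondrial fatty acid synthesis gene was lower instead of 2. Ratios below the adjusted limit numbered 11, and the ratio of Srebf1 to Mlxipl passed it without Control replicate 1, 9, 10 or 12 or MCD replicate 3, 4, 6, 7 or 8.

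Relations with an adjusted p of 0.05 or less numbered 3 in control and 2 in MCD livers. They became 0 and 0 with residuals on the sex-linked score and 1 and 0 without the 2 farthest libraries. With CPM from total counts MCD livers had 6, and without MCD replicate 4 they had 1. The count of genes whose spread differed was 0. It was 1 (Acly) with CPM from total counts, and 0 to 1 over the 24 fits that left out a library, being 1 without Control replicates 1, 4, 7 or 11. For these changes the cause was not tested.

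Replicate numbers are shared by the diets, but nothing says that they pair animals, and same-numbered libraries deviated together in 8 of 12 pairs (correlation of deviations over 0.1; range -0.28 to 0.349), with 2 of 12 libraries closest to their own number. On the sex-linked score, replicates 3 to 7 lay above 0 and replicates 1 and 9 to 12 below 0 in both diets. Replicates 2 and 8 lay at opposite ends in the diets. The part of the score in the blocked fit was not tested. With a replicate block in the fit, all 10 genes were lower, 43 pathway genes were lower and 9 higher, SREBP-2 targets lower numbered 6 instead of 10, and 12 ratios passed instead of 11.

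Depth limited Pnpla3 alone among the 10 genes: its MCD libraries held a median of 4 counts. The feeds differ in more than methionine and choline, markers of cell types differ between the livers, and sex is not labelled per library.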
